A study of Mus musculus with 28 samples.

Results

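The genes described here encode the nuclear subunits of the mitochondrial respiratory chain and of ATP synthase. They were taken by symbol: Nduf followed by a, b, c, s or v and a number (complex I), Sdha to Sdhd (complex II), Cyc1 and Uqcr (complex III), Cox4 to Cox8 (complex IV) and Atp5 (complex V). Symbols that mark a pseudogene (-ps) or a provisional gene (Gm) and the Ndufaf assembly factors were left out. The rule gave 89 of the 43629 genes in the count table, 40 in complex I, 4 in complex II, 9 in complex III, 19 in complex IV and 17 in complex V, on 19 chromosomes. A few symbols fit their complex loosely: Ndufa4 is now also regarded as a complex IV subunit, Atp5s encodes a coupling factor-like protein, and the structural subunits Ndufab1 and Usmg5 carry symbols that the rule misses.

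The RNA came from the cortex of Glt25d2 BacTRAP mice. In this transgenic line a tagged ribosomal protein is expressed under Glt25d2 (now Colgalt2) control, in projection neurons of cortical layer 5, and all groups carry it. Total cortical RNA is the input, and RNA recovered with the tagged ribosomes by immunoprecipitation is the IP. The groups are healthy mice and mice with experimental autoimmune encephalomyelitis (EAE), induced with the myelin peptide MOG35-55 and sampled in the acute phase at day 15 or the chronic phase at day 30. Each fraction had 5 healthy, 5 acute and 4 chronic libraries, 28 in all. Nothing in the labels states that each library is a different mouse, so p-values measure only the spread between these libraries, which may be technical.

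Electrons from NADH enter the chain at complex I and those from succinate at complex II. They pass through coenzyme Q to complex III, through cytochrome c to complex IV and from there to oxygen, and the proton gradient built on the way drives ATP synthase, complex V. Complexes I, III, IV and V are assembled from subunits encoded in the nucleus and a few encoded in mitochondrial DNA, whereas complex II is nuclear throughout. Core subunits carry the flavins, iron-sulphur clusters and catalytic sites, and the many small accessory subunits surround them. Projection neurons with long axons rely on this pathway for most of their ATP.

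Input libraries held 17848273 to 27915940 counts and IP libraries 6198088 to 21229550. Of the 89 genes, 86 to 88 had at least 1 count in an input library and 74 to 86 in an IP library. Levels below are CPM, counts scaled to library size, on a scale shared by the 28 libraries, and changes are log2 fold changes ± standard error. The SD of the subunit genes within a group was 0.0663 log2 units in input and 0.614 in IP (medians over genes). The IP libraries were therefore far less precise. The 4 with the fewest genes detected were acute 1 and 3, chronic 3 and healthy 5, with 9566 to 11087 genes. The next had 11940, so the cut at 4 was a choice and marks no gap. Of 8 layer 5 markers, Colgalt2 among them, 4, 5 and 5 were higher in IP than in input in healthy, acute and chronic samples. Over all genes 7.2%, 8.56% and 8.74% were called higher. The 8 summed to 932 to 2069 CPM over the IP libraries against 619.7 to 721 CPM over the inputs. Mean sums of general neuron markers were also higher in IP, at 9600, 11621 and 10668 CPM against 7623, 7029 and 7648 CPM in input.

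For each complex, the promoter shown is that of the gene with the largest log2 change among those called higher in acute input and listed in the promoter table, since these genes carry the acute change described next. Each is the 250 bases before the transcription start, from RefSeq on GRCm38.p6, on the minus strand and written 5′ to 3′. The intervals are chr8:69902021-69902270 (Ndufa13, complex I), chr9:50603850-50604099 (Sdhd, complex II), chr10:80406822-80407071 (Uqcr11, complex III), chr19:7217617-7217866 (Cox8a, complex IV) and chr5:108434400-108434649 (Atp5k, complex V). The starts can differ from those of the annotation used for counting. There Ndufa13 spans 69894188 to 69902558, so its window lies inside the gene as counted. The Atp5k and Uqcr11 windows reach slightly into theirs, which extend to 108434448 and 80406830. Capitals mark a match to a motif that was searched on both strands.
Ndufa13: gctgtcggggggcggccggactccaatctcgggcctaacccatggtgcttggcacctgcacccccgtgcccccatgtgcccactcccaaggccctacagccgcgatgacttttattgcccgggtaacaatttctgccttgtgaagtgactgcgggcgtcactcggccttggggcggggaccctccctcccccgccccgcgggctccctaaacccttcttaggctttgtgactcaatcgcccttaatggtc
Sdhd: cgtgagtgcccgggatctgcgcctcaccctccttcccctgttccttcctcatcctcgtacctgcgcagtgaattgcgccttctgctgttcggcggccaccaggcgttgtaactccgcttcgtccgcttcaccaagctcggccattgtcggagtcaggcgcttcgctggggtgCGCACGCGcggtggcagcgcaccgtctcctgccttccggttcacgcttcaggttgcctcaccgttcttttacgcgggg
Uqcr11: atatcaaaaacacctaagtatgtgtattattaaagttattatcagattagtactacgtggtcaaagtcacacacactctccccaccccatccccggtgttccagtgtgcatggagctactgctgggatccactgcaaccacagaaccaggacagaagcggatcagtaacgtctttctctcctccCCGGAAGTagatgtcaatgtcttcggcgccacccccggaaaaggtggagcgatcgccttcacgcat
Cox8a: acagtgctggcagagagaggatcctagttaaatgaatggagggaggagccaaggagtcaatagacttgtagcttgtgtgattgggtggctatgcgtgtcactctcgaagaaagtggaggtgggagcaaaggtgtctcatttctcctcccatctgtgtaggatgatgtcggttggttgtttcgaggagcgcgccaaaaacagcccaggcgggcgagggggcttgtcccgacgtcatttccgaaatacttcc
Atp5k: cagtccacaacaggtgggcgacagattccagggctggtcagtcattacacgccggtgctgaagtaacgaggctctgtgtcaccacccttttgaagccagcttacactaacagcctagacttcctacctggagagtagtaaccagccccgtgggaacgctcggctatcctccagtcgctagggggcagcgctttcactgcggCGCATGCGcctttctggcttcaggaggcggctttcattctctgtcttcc
The motifs were a core of the NRF1 site (CGCATGCG or CGCACGCG), an ETS site of the kind GABP binds (CCGGAAGT) and a YY1 site (ATGGCGGC), 3 factors known for binding promoters of respiratory genes. The Sdhd and Atp5k windows each held 1 NRF1 core, the Uqcr11 window held 1 ETS site, and the Ndufa13 and Cox8a windows held none of these letters. Promoters were found for 66 of the 89 genes, 71 in all. The NRF1 core was in 11 of these 71 promoters (15.5%) and in 3.44% of all 32851 promoters of the same length. The ETS site was in 3 (4.23%) against 2.88% of all, and the YY1 site in 2 (2.82%) against 1.03%. The subunit promoters were richer in CpG, with a median of 5.6 per 100 bases against 2.4, which bears on how often motifs that contain CG occur.

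In healthy cortex input the most abundant subunit messages per kilobase of exon were Cox8a at 606 ± 26.8 CPM per kb (SD, n = 5), Ndufa4 at 497 ± 17.3, Cox6a1 at 414 ± 22.2 and Cox6b1 at 378 ± 6.48, all of small subunits of complex IV or, for Ndufa4, of a protein found with it. The mean levels of Atp5b (339 CPM per kb) and Atp5a1 (323 CPM per kb), which encode the catalytic beta and the alpha subunit of ATP synthase, followed. In healthy IP the order of means was Cox8a (660 CPM per kb), Atp5a1 (627), Ndufa4 (596), Cox6a1 (585) and Atp5b (578), and neighbours in it differed by less than the spread between libraries. In chronic IP, Atp5b (822 CPM per kb) and Atp5a1 (812 CPM per kb) were first, ahead of Cox6a1 (480 CPM per kb). Cox8a was at 418 ± 128 CPM per kb there. These orders depend on the length used, which was the summed exon length of the gene. For Atp5b that is 4237 bases, beside 1916 in its main coding transcript. For Atp5a1 it is 3135 beside 2471, and for Cox8a 545 beside 550. Scaling by transcript length would thus raise Atp5b and Atp5a1 relative to Cox8a.

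Summed over all 89 genes, input held 14154 ± 288 CPM in healthy, 15336 ± 470 CPM in acute and 13875 ± 392 CPM in chronic libraries. The IP sums were 21252 ± 2765, 18996 ± 6830 and 21232 ± 2806 CPM. The IP mean lay above the input mean in each phase, but the acute IP libraries ran from 10677 to 29042 CPM. Library acute IP 1 gave the upper end, and the other 4 reached at most 20123 CPM.

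**Figure D1:**
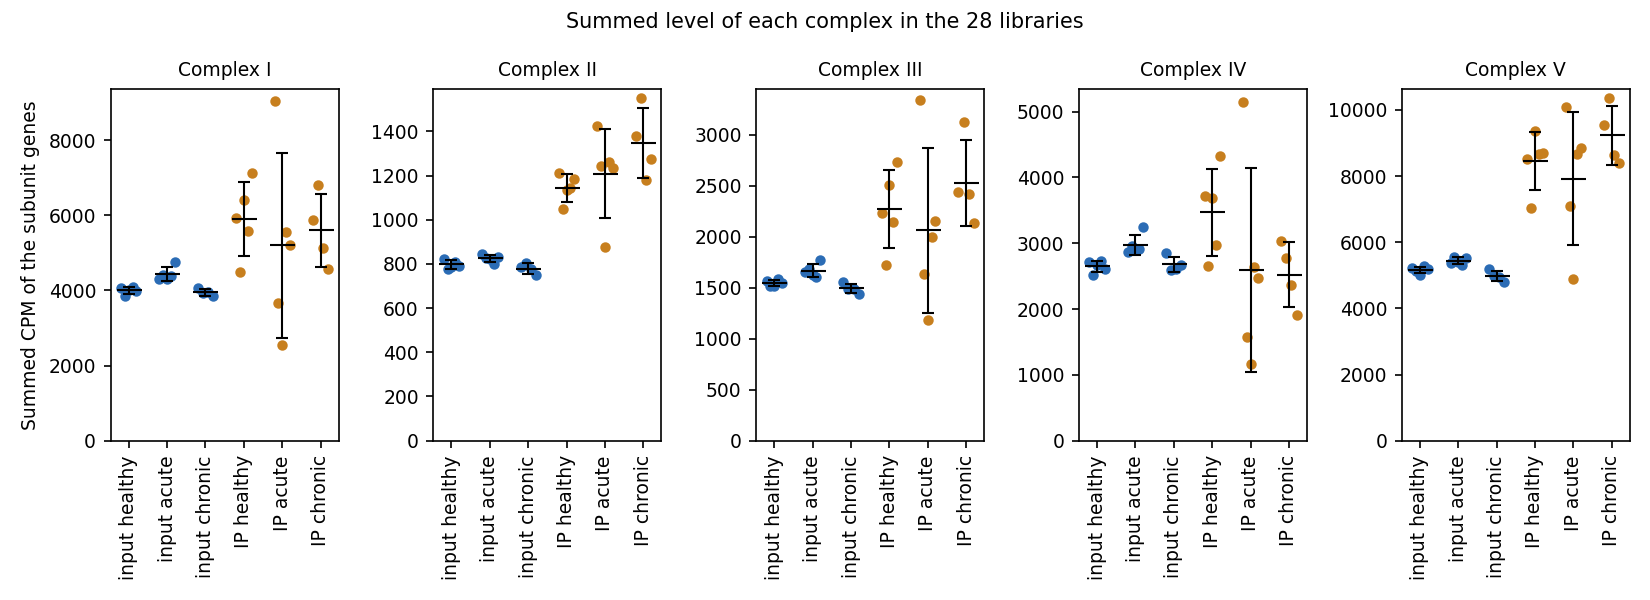
Summed CPM of the nuclear subunit genes of each complex in each of the 28 libraries (points; blue input, orange IP), with group mean and SD (lines). Each panel has its own axis from 0. The acute input libraries lie above the healthy ones in complexes I, III, IV and V and overlap them in complex II, and the acute IP libraries spread most, from 2558 to 9042 CPM in complex I.

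In acute EAE many subunit genes were slightly higher in whole cortex than in healthy mice. Of 82 genes tested in acute against healthy input, 40 rose and 0 fell, and the median log2 change was 0.14, beside -0.01 over all genes. Of all 16381 genes tested, 11.1% were called higher and 8.59% lower. The calls came from each complex: 20 of 37 in complex I, 2 of 4 in complex II, 5 of 9 in complex III, 7 of 15 in complex IV and 6 of 17 in complex V, with medians of 0.15, 0.09, 0.14, 0.18 and 0.07. For 36 genes all 5 acute libraries lay above all 5 healthy ones, which held for 9.01% of all genes. Whether more RNA per cell or a changed mix of cells underlies a level in bulk tissue cannot be told apart.

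The largest rise was that of Atp5k, which encodes subunit e of the membrane part of ATP synthase, a subunit of the interface between its dimers. Its healthy input libraries had 59.0, 59.9, 60.4, 65.6 and 62.5 CPM and its acute ones 88.3, 93.6, 84.0, 90.6 and 105 CPM. The groups were far apart, and the change was 0.59 ± 0.07 (edgeR, adjusted p = 4.8e-06). The other called genes of complex V rose by 0.14 to 0.23. They included the 3 genes for the c-ring subunit, Atp5g1 (0.14), Atp5g2 (0.23) and Atp5g3 (0.18), and the central stalk subunit delta, Atp5d (0.18). The catalytic head changed little, with 0.00 for Atp5a1 and 0.05 for Atp5b, neither called.

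In complex I the leading genes by p were the accessory subunits Ndufa3 (0.40 ± 0.06) and Ndufa13 and the core subunit Ndufs7. Ndufa13, also known as GRIM-19, had 107, 102, 110.4, 105 and 106 CPM in healthy input and 126, 128, 145, 138 and 166 CPM in acute input. All acute libraries were higher, and acute library 5 was the highest (0.41 ± 0.06, edgeR adjusted p = 8.9e-05). Ndufs7 carries the last iron-sulphur cluster before coenzyme Q. Its level went from 134, 125, 136, 133 and 123 CPM to 148, 161, 151, 153 and 168 CPM, again without overlap (0.26 ± 0.04, edgeR adjusted p = 0.00029). By contrast Ndufs1, the largest core subunit, was at 119.5 ± 3.8 CPM in healthy and 114 ± 6.77 CPM in acute input and was not called. Of the Ndufa13 exon bases 30.0% also belong to Tssk6, and the counts do not use strand, so reads from the shared stretch cannot be assigned.

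In complex II the membrane anchor Sdhd and the iron-sulphur subunit Sdhb rose, by 0.16 ± 0.04 and 0.12 ± 0.04 (edgeR, adjusted p = 0.013 and 0.029). Sdhd had 95.2, 93.1, 99.7, 97.9 and 105 CPM in healthy input and 109, 109.6, 106, 110.3 and 115 CPM in acute input. The flavoprotein subunit Sdha, which oxidises succinate, stayed at 430.1 ± 19.8 and 428 ± 14.4 CPM and was not called.

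In complex III the small subunits Uqcr10 (0.29 ± 0.05), Uqcr11 (0.31 ± 0.05) and Uqcrq (0.22 ± 0.05) rose. Uqcr11 had 128, 113, 122, 128 and 123 CPM in healthy and 149, 149.7, 144, 146 and 172 CPM in acute input (edgeR, adjusted p = 0.0004). Its acute library 5 was well above the other 4, which were themselves above every healthy library. The core proteins Uqcrc1 and Uqcrc2 were at -0.01 and -0.07, not called, while the haem subunit Cyc1 rose by 0.14 ± 0.04 (edgeR, adjusted p = 0.01).

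In complex IV the called genes with the smallest p were Cox5b (0.26 ± 0.04), Cox5a (0.23 ± 0.04) and Cox8a (0.27 ± 0.05), which encode accessory subunits around the catalytic core. Cox8a had 343, 314, 339, 340.4 and 315 CPM in healthy and 382, 383, 395, 397 and 439 CPM in acute input (edgeR, adjusted p = 0.00088). The 2 groups did not overlap. Cox4i1, the subunit at which ATP is known to inhibit the enzyme, was at 477 ± 17.7 and 505 ± 30.8 CPM and was not called.

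**Figure D2:**
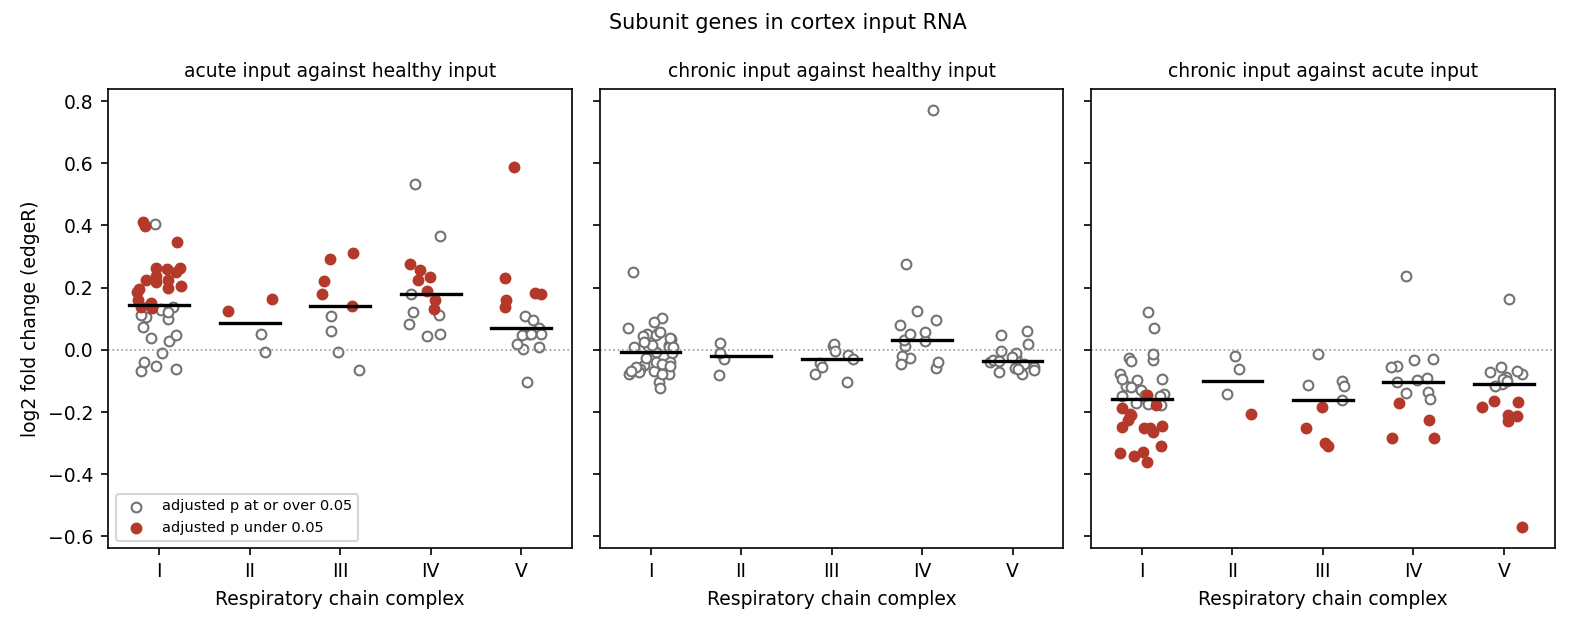
Log2 fold change of each tested subunit gene in input RNA, by complex, for the 3 phase comparisons. Filled points have an adjusted p under 0.05 and bars are medians. In acute against healthy input 40 filled points lie above 0, in chronic against healthy input there is none, and in chronic against acute input 32 lie below 0.

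By the chronic phase the input levels were close to healthy again. In chronic against healthy input 0 of 82 subunit genes were called by edgeR in either direction, 4 had an unadjusted p under 0.05 (all genes: 2310 of 16381) and DESeq2 also called 0 (4.31% of all genes). Over all genes 2.33% were called higher and 0.409% lower. The subunit median was -0.02, with 34 of 82 values above 0. In chronic against acute input, which shares the acute libraries with the comparison above, 32 of 82 genes fell and 0 rose (2.95% of all genes were called higher and 4.74% lower). The median was -0.14, and 78 of 82 values were below 0. For 40 genes the 4 chronic libraries lay below all 5 acute ones, which held for 6.58% of all genes.

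The falls came from 16 complex I, 1 complex II, 4 complex III, 4 complex IV and 7 complex V genes. Atp5k returned to 69.5, 63.5, 62.2 and 53.2 CPM, below every acute library (-0.57 ± 0.07, edgeR adjusted p = 0.00031). Ndufs7 was at 126, 126, 123 and 119.8 CPM (-0.33 ± 0.05, edgeR adjusted p = 0.00065), and Ndufa13 at 111, 112, 106 and 109 CPM (-0.36 ± 0.07, edgeR adjusted p = 0.0028). Their chronic libraries lay within or near the healthy range. Cox5a (-0.29 ± 0.04), Cox5b (-0.28 ± 0.04), Uqcr10 (-0.31 ± 0.05), Uqcr11 (-0.30 ± 0.06) and Sdhb (-0.21 ± 0.04) also fell. When all 28 libraries were fitted together, with IP and input in 1 model, both input comparisons lost every subunit call.

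Other genes of the pathway were tested in acute input as short lists. Over all genes 11.1% were called higher and 8.59% lower there, and lists this short allow no firm comparison with these shares. Of the 12 mitochondrially encoded subunits tested 0 were called, and 0 had an unadjusted p under 0.05 (edgeR). Among assembly factors, 1 of 16 for complex I was higher (Tmem126a, 0.26 ± 0.07), 0 of 13 for complexes II, III and V were called, and of 18 for complex IV 1 was higher (Cox14, 0.20 ± 0.04) and 2 were lower (Sco1, -0.35 ± 0.08, a copper chaperone, and Lrpprc, -0.26 ± 0.07). Of 14 genes for cytochrome c and coenzyme Q synthesis 1 was higher (Coq8b) and 1 lower (Coq10b). Of 13 regulators of mitochondrial biogenesis Esrra was higher (0.14 ± 0.05), and Esrrg (-0.31 ± 0.08) and Ppargc1a (-0.19 ± 0.06), a coactivator of mitochondrial genes, were lower. Ndufab1, the acyl carrier protein that sits in complex I, rose by 0.23 ± 0.04 (edgeR, adjusted p = 0.0012).

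Markers of other cells moved in the same acute input libraries. Of the microglia markers 6 of 8 were higher and 1 lower, with summed levels of 97.8 to 155 CPM against 41.0 to 63.9 CPM in healthy and 66.9 to 150.5 CPM in chronic input. Of the leukocyte markers 4 of 5 tested were higher. They summed to 13.0 to 23.6 CPM in acute, 6.39 to 18.4 CPM in healthy and 9.39 to 28.03 CPM in chronic input, with Ly6c2 at 0 in each healthy library. Of the astrocyte markers 3 of 8 were higher, and their sum was 1779 to 2428 CPM in acute, 1264 to 1549 CPM in healthy and 1651 to 2457 CPM in chronic input. Of 5 neuron markers 0 were higher and 1 was lower, with 6860 to 7206 CPM in acute, 7222 to 8018 CPM in healthy and 7420 to 8132 CPM in chronic input. In chronic input the mean microglia, leukocyte and astrocyte sums were above the healthy means, with a microglia median of 75.3 CPM. The mean neuron sum was 7623 CPM in healthy, 7029 CPM in acute and 7648 CPM in chronic input. The part of these cells in the acute rise was not tested.

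The acute rise followed gene length. Coding length was known for 85 of the 89 genes (GENCODE M21), with a median of 408 bases and a range of 156 to 2181. Ndufa11b, Ndufb4c, Ndufs6b and Cox6c2 had no coding transcript there, and none of them was tested. Among subunit genes under 450 coding bases 29 of 47 rose (61.7%), from 450 to under 900 bases 9 of 23 (39.1%) and from 900 bases 2 of 12 (16.7%). Over all genes in the same ranges 24.1%, 16.2% and 9.58% were called higher. The median changes were 0.18, 0.11 and 0.04 for the subunits and 0.06, 0.04 and -0.02 for all genes. Spearman's rho between coding length and the acute input change was -0.47 across 82 subunit genes and -0.16 across all genes with a coding length, as descriptions over genes that share libraries. The model could also take an offset for length, which used summed exon length and not coding length. With it the subunit median was 0.08, with 29 of 82 called higher. In chronic against acute input it was then -0.08, with 24 called lower. The 13 core subunits, whose median coding length was 975 bases, gave 4 calls, with a median change of 0.06. The other genes gave 36 of 69, with a median of 0.15.

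In the ribosome-bound RNA of healthy mice a minority of the subunit genes passed the test, all of them higher than in whole cortex. Of 82 genes tested in IP against input, 25 were higher and 0 lower, and 75 values were above 0. The median was 0.46, beside -0.23 over all genes, of which 7.2% were called higher and 14.4% lower. For 32 genes all 5 IP libraries lay above all 5 inputs, which held for 7.86% of all genes. By complex 10 of 37, 2 of 4, 4 of 9, 2 of 15 and 7 of 17 were called, for I to V. Of the core subunits 12 of 13 were called (median 0.82), against 13 of the other 69 (median 0.39).

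By p the alpha and beta subunits of the ATP synthase head came first, though not by size of change. Atp5a1 had 1799, 1815, 2220.1, 2147 and 1852 CPM in healthy IP and 1012 ± 29.6 CPM in healthy input (0.96 ± 0.10, edgeR adjusted p = 2.2e-08). Atp5b had 2448, 2078, 2650.3, 2775 and 2303 CPM in IP and 1437 ± 62.4 CPM in input (0.77 ± 0.10, edgeR adjusted p = 2.4e-06). The IP and input libraries of these genes did not overlap. In complex I, Ndufv1, which takes electrons from NADH, had 402, 382, 438, 429.8 and 499 CPM in IP and 208 ± 6.63 CPM in input (1.05 ± 0.16, edgeR adjusted p = 2.2e-05). In complex III, Uqcrc1 had 534, 479, 562, 559 and 609.7 CPM in IP and 294 ± 9.17 CPM in input (0.90 ± 0.15, edgeR adjusted p = 4.6e-05). Sdhb in complex II was higher by 1.01 ± 0.20, and in complex IV the called genes were Cox5a (0.50 ± 0.15) and Cox5b (0.73 ± 0.26).

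In acute EAE, 14 of 82 subunit genes were higher in IP than in input and 2 were lower, with a median of -0.08, beside -0.36 over all genes (8.56% higher and 10.1% lower). In chronic EAE, 18 were higher and 2 lower, with a median of 0.09, beside -0.32 over all genes (8.74% higher and 20.0% lower). These 3 comparisons use separate libraries but 1 model. The genes called higher in all 3 phases numbered 13, which is 13 of the 25 healthy, 13 of the 14 acute and 13 of the 18 chronic calls. They included Atp5a1, Atp5b and Atp5d, Cyc1, Uqcrc1 and Uqcrfs1, Sdha, and Ndufa9, Ndufa10, Ndufs1 and Ndufv1. Complex IV had 0 genes called higher in either EAE phase. Without replicate 1 the acute count was 30, with 9 higher and 21 lower (16.4% of all genes were called). Without the 4 IP libraries of fewest genes the counts were 40 in healthy (all higher), 28 in acute (18 higher) and 32 of 83 in chronic samples (27 higher), where 34.1%, 26.8% and 42.1% of all genes were called. The length offset, which also moved the median of all genes to 0.44, 0.44 and 0.48, gave 67, 56 and 67, with 30.4%, 31.0% and 35.7% of all genes called.

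Ndufs1 carries iron-sulphur clusters next to the NADH site of complex I, and its IP levels lay above input in each phase. Its gene lies on chromosome 1 from 63143596 to 63176833 on the minus strand of GRCm38. Input libraries had 124, 117, 117, 123 and 117 CPM in healthy, 113, 122, 118, 113 and 104 CPM in acute and 104, 120.1, 117 and 103 CPM in chronic samples. IP libraries had 211, 135, 209, 161 and 234 CPM in healthy, 275, 253, 256, 244 and 239 CPM in acute and 272, 380.05, 336 and 281 CPM in chronic samples. The lowest IP library was above the highest input library, and the healthy IP libraries lay below those of both EAE phases. The IP to input change was 0.67 ± 0.12, 1.15 ± 0.12 and 1.52 ± 0.14 in the 3 phases (edgeR, adjusted p = 0.00016, 2.8e-08 and 1.5e-09).

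Sdha (chromosome 13, 74322254 to 74350280, minus strand) had 537, 553, 589, 596 and 437 CPM in healthy IP, 732, 932, 627, 780.2 and 798 CPM in acute IP and 783, 948, 782 and 885 CPM in chronic IP. Every EAE library of the IP was above every healthy one, while the input means were 430.1, 428 and 420.5 CPM. Its IP to input change was 0.33 ± 0.09, 0.86 ± 0.09 and 1.01 ± 0.11 (edgeR, adjusted p = 0.009, 6.5e-08 and 2.5e-08). Uqcrc2 (chromosome 7, 120635176 to 120659478, plus strand) had 282, 187, 349, 284 and 243 CPM in healthy IP, 321, 246, 291, 306 and 296 CPM in acute IP and 383, 547, 398 and 414 CPM in chronic IP. Only the chronic group lay clear of the healthy one. Of the Uqcrc2 exon bases 19.7% also belong to Pdzd9.

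**Figure D3:**
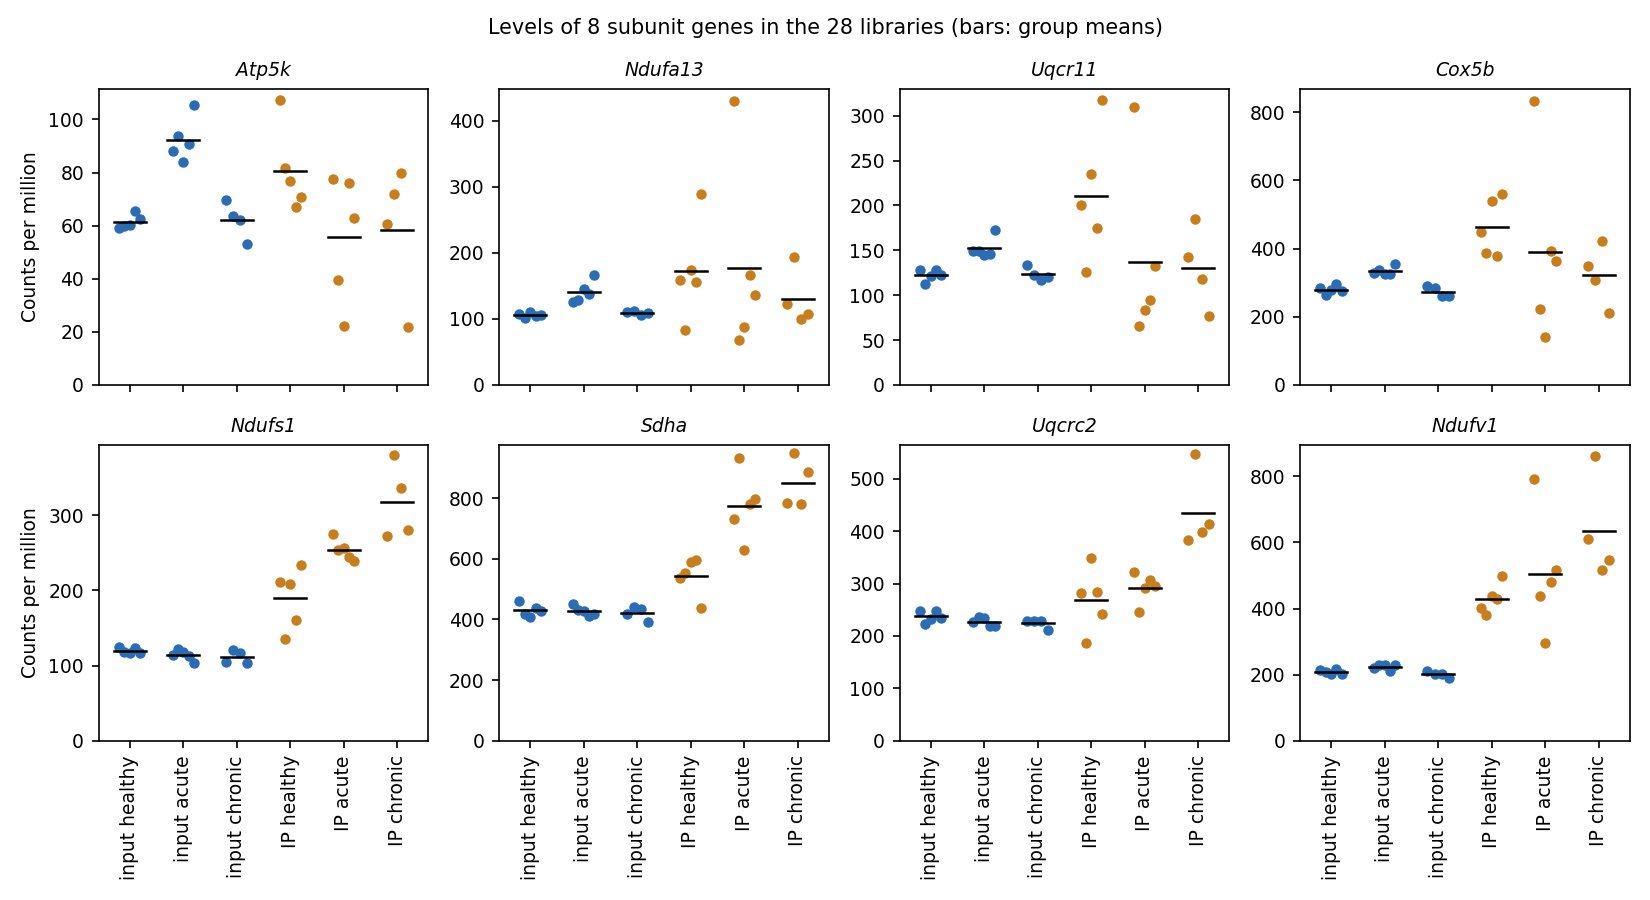
CPM of 8 subunit genes in each of the 28 libraries (blue input, orange IP; bars are group means; each panel has its own axis from 0). The upper row holds 4 short genes, whose acute input libraries lie above the healthy ones and whose IP libraries scatter. In the lower row input is level and the IP libraries of Ndufs1 and Sdha from EAE mice lie above the healthy ones.

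The difference of the chronic change between fractions was tested directly. For 3 of 82 subunit genes the chronic change was higher in IP than in input, and for 0 lower, beside 0.633% and 0.392% of all genes. They were Ndufs1 (0.85 ± 0.18, edgeR adjusted p = 0.023), Sdha (0.68 ± 0.14, adjusted p = 0.019) and Uqcrc2 (0.78 ± 0.18, adjusted p = 0.037). With the length offset the values were 0.73, 0.84 and 1.07 and none was called. Leaving out the IP and input library of chronic replicate 2 or healthy replicate 1 ended all 3 calls (0.79 and 0.87 for Ndufs1, 0.65 and 0.65 for Sdha, 0.66 and 0.78 for Uqcrc2). Ndufs1 was also lost without chronic 3 (0.84) or healthy 4 (0.78), Sdha without chronic 4 (0.63), and Uqcrc2 without chronic 3 (0.83) or 4 (0.77) or healthy 2 (0.69), 4 (0.78) or 5 (0.75). The subunit median went the other way, at -0.37 with 63 of 82 values below 0 (all genes -0.05). For the acute change edgeR called 0 subunit genes in this test (0.00603% of all genes). Unadjusted p was under 0.05 for 17 (all genes: 1901 of 16580), and DESeq2 called 1 (2.24% of all genes). The acute median was -0.50 (all genes -0.01). Without replicate 1, whose IP library stood apart, 13 were called in the acute test, 1 higher and 12 lower (1.74% of all genes).

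Within the IP alone no subunit gene passed the test. In acute against healthy IP edgeR called 0 of 80 (0.0647% of all genes in either direction). Unadjusted p was under 0.05 for 7 (all genes: 871 of 13914), and DESeq2 called 1 of 75 (2.60% of all genes). Without acute IP 1 edgeR called 3, all lower (0.360% of all genes). In chronic against healthy IP edgeR called 0 of 80 (0.187% of all genes). Unadjusted p was under 0.05 for 14 (all genes: 1494 of 13914), and DESeq2 called 6 of 75 (5.73% of all genes). In chronic against acute IP edgeR called 0 of 80 (0.0% of all genes). Unadjusted p was under 0.05 for 7 (all genes: 1145 of 13914), and DESeq2 called 2 of 64 (6.31% of all genes). DESeq2 gave an adjusted p to only 4738, 5008 and 2851 genes in these 3 comparisons, and its shares are of those, not of 13914. Its subunit calls here were all higher. The medians were -0.35 in acute and -0.40 in chronic against healthy IP (all genes -0.04 and -0.03), with 63 and 60 of 80 values below 0. In chronic against acute IP the median was 0.09 (all genes 0.02).

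By level, the chronic IP libraries of 8 genes lay above all healthy IP libraries and those of 4 lay below, which held for 2.87% and 1.95% of all genes. The 8 had log2 changes of 0.37 to 0.73 and included Ndufs1, Sdha, Uqcrc2, Atp5a1 and Atp5b, and the 4 were Ndufb2, Ndufs8, Uqcr10 and Atp5g1, with changes of -1.27 to -0.56. Atp5b had 3449.6, 3535, 3388 and 3560.5 CPM in chronic IP against at most 2775 CPM in healthy IP. Uqcr10, a small complex III subunit, had 94.9, 87.3, 67.2 and 94.7 CPM in chronic IP and 252, 95.4, 183, 152 and 291 CPM in healthy IP. Its chronic libraries reached almost to the lowest healthy one. In acute against healthy IP, Ndufs1 (0.41) and Sdha (0.51) had acute libraries above every healthy one, as 1.33% of all genes did.

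The EAE libraries of the IP differed from healthy ones along gene length, among the subunits and in all genes. In chronic against healthy IP the median change of subunit genes was -0.47 under 450 coding bases, -0.22 from 450 to under 900 and 0.52 from 900 bases. All genes in these ranges had medians of -0.47, -0.26 and 0.10. In acute against healthy IP the medians were -0.46, -0.32 and 0.13 for subunit genes and -0.43, -0.24 and 0.05 for all genes. Below 900 bases the subunit medians lay close to those of all genes of the same length. The 12 longest subunit genes had a higher chronic median than all genes of that length, a description of few genes. With the length offset, which used summed exon length, the subunit median was 0.05 in chronic and -0.03 in acute against healthy IP. Across subunit genes Spearman's rho of these changes with coding length was 0.59 in chronic and 0.59 in acute. With summed exon length it was 0.29 and 0.19.

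**Figure D4:**
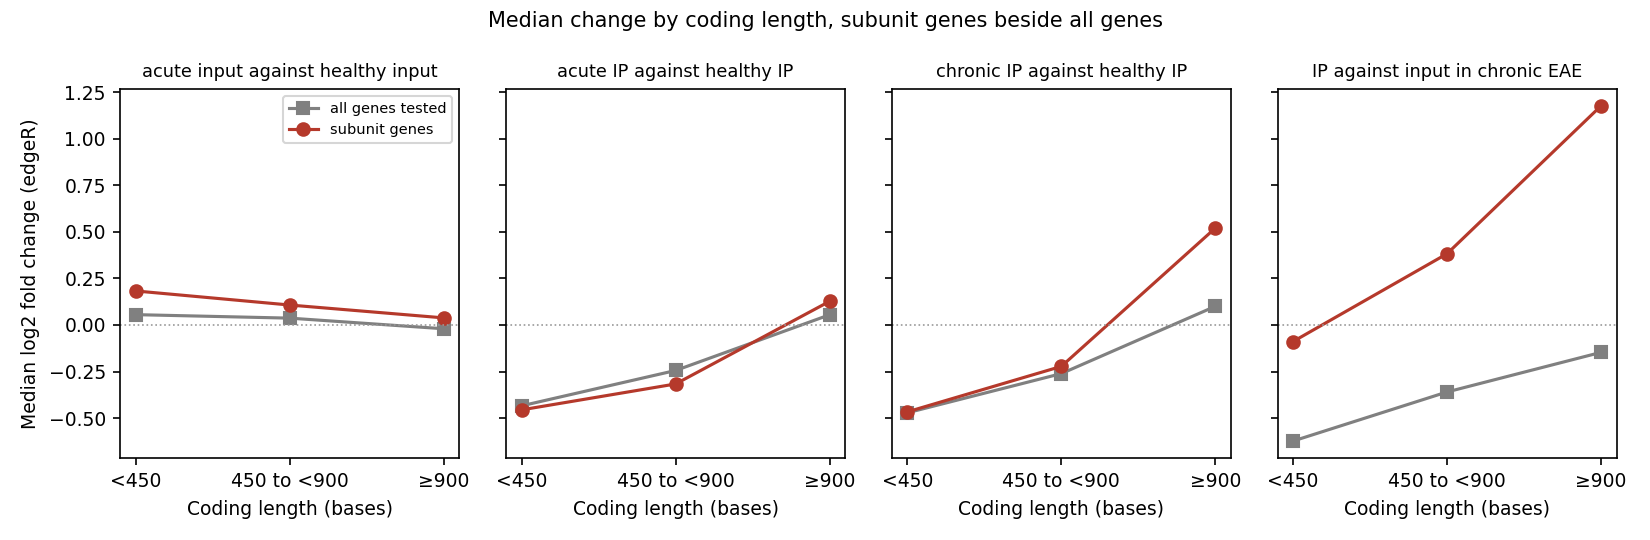
Median log2 fold change of subunit genes (red circles) and of all genes tested (grey squares) in 3 ranges of coding length, for 4 comparisons. In acute and chronic against healthy IP the 2 lines nearly coincide below 900 bases. In IP against input in chronic EAE the subunit line runs above that of all genes in each range, with 1.18 against -0.15 from 900 bases.

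The enrichment over input followed length as well. In healthy samples the IP to input medians of subunit genes were 0.33, 0.56 and 0.67 in the 3 length ranges, beside -0.14, -0.05 and -0.21 for all genes. In acute EAE they were -0.26, 0.05 and 0.81, beside -0.69, -0.38 and -0.20, and in chronic EAE -0.09, 0.38 and 1.18, beside -0.62, -0.36 and -0.15. The subunit genes thus lay above all genes of their length in each phase. Spearman's rho between coding length and the IP to input change across 82 subunit genes was 0.49 in healthy, 0.75 in acute and 0.75 in chronic samples, and across all genes -0.11, 0.12 and 0.12. The core subunits are mostly longer than the rest, with a median of 975 coding bases against 348. The overlap is partial, since core genes start at 636 bases and the others reach 1440. Role and length were not tested apart. The core subunits gave 9 of 13 calls in acute and 11 of 13 in chronic samples, with medians of 0.62 and 0.92, and the other 69 had medians of -0.16 and -0.05.

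**Figure D5:**
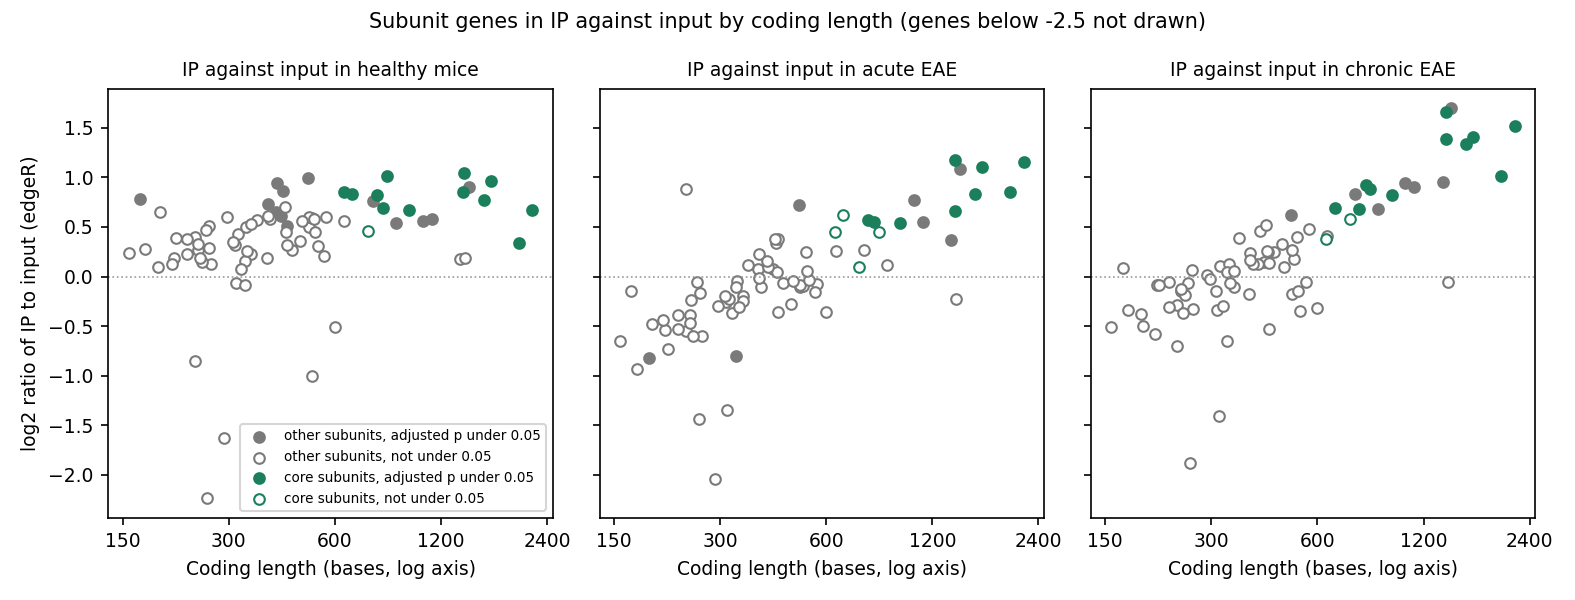
Log2 ratio of IP to input for each subunit gene against its coding length (log axis), in each phase. Core subunits are green, others grey, and filled points have an adjusted p under 0.05. The points climb with length in the acute and chronic panels, with rho of 0.75. Cox4i2 and Cox6b2, listed at 0 in all chronic IP libraries, fall below the axis in the EAE panels and are not drawn.

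The genes called lower in IP were all of complex IV. In acute EAE they were Cox7a2l (-0.80 ± 0.22, edgeR adjusted p = 0.011), a factor that joins complexes III and IV, and Cox7c (-0.82 ± 0.28, adjusted p = 0.035). Cox7a2l had 125, 70.1, 29.5, 104 and 94.8 CPM in acute IP and 148 ± 7.96 CPM in acute input. All 5 acute IP libraries were below the inputs. Cox7c had 254, 83.0, 45.8, 139 and 118 CPM in acute IP and 226 ± 12.2 CPM in input, and its library acute IP 1 was above the input mean. Both signs turned with the length offset, to 0.34 and 0.40. In chronic EAE the calls were Cox4i2 and Cox6b2, with 0 counts in all 4 chronic IP libraries. With 3 counts in the whole group as the detection floor, Cox4i2 was at least 19.4-fold lower and Cox6b2 at least 44.6-fold lower in IP than in input. These bounds leave out the spread between IP libraries, which is wide for genes this low. In healthy IP Cox6b2 had 0 to 69 counts per library and a pooled level of 1.67 CPM, beside 1.42 CPM in healthy input. Cox4i2 had 0 to 34 counts there and 0.54 CPM, beside 1.01 CPM. A depletion of Cox6b2 was thus not seen in healthy samples.

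Complex IV has subunits in pairs of isoforms, and the cortex used the widely expressed ones. In healthy input Cox4i1 was at 308 ± 11.4 CPM per kb and Cox4i2, the hypoxia and lung form, at 1.27 ± 0.491. Cox6a1 was at 414 ± 22.2 CPM per kb and the heart and muscle form Cox6a2 at 11.9 ± 0.475, and Cox6b1 at 378 ± 6.48 and the testis form Cox6b2 at 1.28 ± 0.235. Cox7a2 was at 175 ± 8.38 CPM per kb, Cox7a2l at 125 ± 3.86 and the muscle form Cox7a1 at 3.82 ± 0.884. Cox7b was at 155 ± 5.78 CPM per kb and Cox7b2 at 0.336 ± 0.28. Ndufa4 was at 497 ± 17.3 CPM per kb and Ndufa4l2, which is induced in hypoxia, at 1.83 ± 0.754. Cox8b was at 0.827 ± 0.676 CPM per kb, and Cox8c had 0 counts in all 28 libraries.

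These minor isoforms were mostly near or under detection in the IP. Of the 14 IP libraries, 11 had 0 counts for Cox4i2, 10 for Cox6b2, 10 for Ndufa4l2, 6 for Cox7a1, 13 for Cox7b2 and 14 for Cox8b. Cox6a2 was the most abundant of them, with 6.97 to 11.3 CPM across the 14 inputs. Its IP libraries had 9.12, 1.91, 0.00, 1.63 and 0.00 CPM in healthy, 0.00, 2.81, 0.00, 3.09 and 4.78 CPM in acute and 13.1, 0.00, 17.4 and 4.14 CPM in chronic samples. That is 5 libraries at 0 and no order of the phases that holds beyond the spread. Cox4i1, the main isoform, had 638, 586, 754, 659 and 972 CPM in healthy IP, 1034, 278, 171, 404 and 494 CPM in acute IP and 572, 639, 455 and 666 CPM in chronic IP. Its IP to input changes of 0.60, -0.09 and 0.26 were not called. The genes under the filter in every fit were Ndufa11b, Ndufb4c, Ndufs6b, Cox6c2, Cox7b2, Cox8b and Cox8c, and Cox4i2 and Cox6b2 were also left out of the IP fit.

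The subunits encoded in mitochondrial DNA were lower in the IP in every phase. Of 12 tested, 9, 12 and 12 were lower in IP than in input in healthy, acute and chronic samples, with medians of -2.53, -4.45 and -4.37. Their summed level was 3591 ± 953, 3719 ± 1228 and 4515 ± 1834 CPM in input and 489 ± 177, 171 ± 52.9 and 217 ± 61.9 CPM in IP. These messages are translated by mitochondrial ribosomes, which carry no tag. Lrpprc, which binds and stabilises mitochondrial messages, was higher in chronic than in healthy IP (1.35 ± 0.23, edgeR adjusted p = 0.0087), and its chronic change was higher in IP than in input (1.5 ± 0.25, adjusted p = 0.0026).

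Messages of other cells were present in the IP beside the subunit genes, and some stood higher in EAE. The summed astrocyte markers were 913 to 1265 CPM in healthy, 1565 to 2401 CPM in acute and 1524 to 3187 CPM in chronic IP. The oligodendrocyte markers summed to 1057 to 1381, 866 to 1220 and 1231 to 3051 CPM, and the microglia markers to 15.9 to 46.1, 0 to 74.1 and 32.9 to 159 CPM. The inhibitory neuron markers summed to 573 to 801 CPM in healthy, 615 to 929 CPM in acute and 992 to 1345 CPM in chronic IP, without overlap of healthy and chronic libraries, and 1 of 6, Gad1, was called higher in chronic IP (0.97 ± 0.19, edgeR adjusted p = 0.027). Their input sums were 907 to 1141 CPM over the 14 libraries. The leukocyte markers summed to 0 to 13.0 CPM over the IP libraries, with Ly6c2 at 0 in 13 of 14. The part of these cells in the IP levels of the subunit genes was not tested.

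Some subunit genes share sequence with other genes. More than 10% of 50-base stretches recur in transcripts of other genes for 18 of the 85 genes with a coding transcript, led by Atp5l (68.5%), Atp5h (47.9%) and Uqcrb (43.2%). Cox7c (27.9%) and Cox5b (25.9%) are among them, and reads from such stretches may be split or lost. In 11 genes more than 10% of the exon bases overlap another gene.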

How the data were processed

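Counts per gene were deposited for 28 libraries of poly A-enriched cortical RNA. Per the file headers, the authors counted read pairs on exons by gene with featureCounts 1.5.1, without strand, against Ensembl release 79 of GRCm38; the submitters' processing notes name STAR 2.4 and DESeq2. The summed exon length in the same file gave levels per kilobase. Totals were 17848273 to 27915940 counts in input and 6198088 to 21229550 in IP, with common biological coefficients of variation of 0.101 and 1.06.

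Counts were fitted in R 4.3.3 with edgeR 4.0.16: filterByExpr (minimum count 10, minimum total 15), TMM scaling and the robust quasi-likelihood F test. Phases were compared in separate fits of the input and of the IP libraries. A fit of the 28 libraries gave IP against input and the differences of change between fractions. Benjamini-Hochberg adjustment ran over all genes, with a threshold of 0.05. Any member may be given by level. With a test, up to 3 higher and 3 lower per complex with the smallest adjusted p were eligible, and names outside that rule were chosen after their values were seen. The members, lists and tests were chosen with earlier results of these data known. Alternatives were DESeq2 1.42.0 (size factors, Wald test), no filter, a length offset on summed exon length, a replicate block and all libraries together. Others left out each replicate or the 4 IP libraries with the fewest genes. An exon length window was chosen after seeing the data. It held genes of 375 to 4408 summed exon bases, the 5th to 95th percentile of the members. The window is wide and kept 9947 of the 16381 genes tested in input, with 75 of the 82 members. The fits were tested on simulated data. No libraries were duplicates.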

Additional observations from a re-analysis of the deposited data

Results flagged for a closer look

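The highest or lowest library stood far from the others of its group in 9 of the 144 groups of values checked, where chance gives about 1 in 20. Acute input 5 had the highest summed level of complex I (4751 CPM, others 4296 to 4422) and of complex IV (3241 CPM, others 2859 to 2952), and the highest Uqcr11 (172 CPM, others 144 to 149.7) and Cox4i1 (559 CPM, others 480.3 to 501). Acute IP 1 had the highest Ndufa13 (429.9 CPM, others 67.5 to 166) and Uqcr11 (309.96 CPM, others 65.7 to 133). Single values apart were Uqcrc1 in chronic IP 2 (1073 CPM, others 796 to 838), Uqcrc2 in chronic input 4 (211 CPM, others 228 to 229) and Cox6a2 in healthy IP 1 (9.12 CPM, others 0 to 1.91). The chronic change differed between IP and input for Ndufs1 (0.85), Uqcrc2 (0.78) and Sdha (0.68), by edgeR's test of the difference itself.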

How the results depend on the processing

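Counts here are subunit genes called in either direction. The main counts were 40 in acute against healthy input and 32 in chronic against acute input. Size factors, Wald test, no filter, length offset, replicate block and exon length window gave 29 to 43 and 24 to 40. Leaving out each replicate gave 29 to 40 and 23 to 34. Of all genes 11.4% to 22.3% and 4.26% to 10.6% were called in the former runs. Leaving out a replicate gave 16.1% to 20.3% and 4.72% to 7.28%. Fitting all 28 libraries together gave 0 in both (0.121% and 0.0% of all genes), since the IP spread entered the error. Chronic against healthy input stayed at 0 in each alternative run.

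In acute against healthy IP (0) all libraries together gave 3 (9.72% of all genes), the Wald test 1 (2.60%), and leaving out a replicate 0 to 3 (at most 0.360%). In chronic against healthy IP (0) the counts were 14 with all libraries together (15.4% of all genes), 1 with size factors (0.388%) and 6 with the Wald test (5.73%). Without the 4 IP libraries with the fewest genes the count was 1 (0.276%), and with the exon length window 4 (0.532%). Leaving out a replicate left 0. In chronic against acute IP (0) all libraries together gave 4 (10.6% of all genes) and the Wald test 2 (6.31%). The Wald test shares are of the genes given an adjusted p, 4738, 5008 and 2851 in these 3 comparisons.

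IP against input gave 25, 16 and 20 calls in healthy, acute and chronic samples, 67, 56 and 67 with the length offset, and 40, 28 and 32 without the 4 IP libraries. Leaving out a replicate gave 19 to 25, 11 to 30 and 16 to 21, and the replicate block 25, 17 and 21. Of all genes 21.6%, 18.7% and 28.7% were called in the main fit and 22.3%, 20.0% and 29.0% with the block. Leaving out a replicate gave 18.2% to 22.5%, 14.5% to 19.0% and 24.8% to 30.1% of all genes. The offset reversed Cox7a2l (0.34) and Cox7c (0.40) in acute samples. For the difference of the acute change between fractions (0) the Wald test gave 1 (2.24% of all genes). Leaving out the 4 IP libraries gave 16 (8.07%) and leaving out a replicate 0 to 13 (at most 1.74%). For the chronic one (3) the counts were 5 with size factors (1.38% of all genes), 7 with the Wald test (5.90%) and 0 with the offset (0.0543%). Without the 4 IP libraries the count was 11 (10.8%), with the exon length window 5 (1.23%) and with the block 2 (0.464%). Leaving out a replicate gave 0 to 3 (at most 0.878%). The causes were not tested. The replicate numbers were not taken to pair IP and input: correlations of the deviations of same-numbered libraries were -0.00863 to 0.143, though the own number was the best match in 10 of 14, a hint from the data. The block ended the call of Uqcrc2 in the chronic difference (0.79).

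Of 68 named gene results 31 kept their call in every alternative run, all 31 in IP against input (10 of 13, 8 of 12 and 13 of 13), and 0 of the 14 and 13 input results and of the 3 differences did. On leaving out any replicate 56 kept it, 13 of 14 and 12 of 13 of the input results among them. Depth and spread limit the IP: its common biological coefficient of variation was 1.06, and genes near 0 counts give no phase comparison there.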
